A study of Mus musculus with 3 samples.

Results

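The genes described here encode the core of Polycomb repressive complex 2 (Ezh1, Ezh2, Eed and Suz12) and the enzymes that write and keep DNA methylation (Dnmt1, Dnmt3a, Dnmt3b, Uhrf1 and Hells). They are a list of 9 genes, matched by gene symbol to 15 probes, out of 19855 named genes measured on every array. RNA of the mouse cerebellum at postnatal day 10 was hybridised to 3 arrays with a pair of colours each. Every array held RNA of a Smarca5 conditional knockout (cKO) beside RNA of a wild-type control, both on the C57Bl/6 strain. The cKO carried Cy5 on replicates 1 and 2 and Cy3 on replicate 3, the array with flipped dyes. Which Cre line removed Smarca5, and in which cells, is not given in the sources used here, nor is whether an RNA came from 1 animal or a pool.

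Polycomb repressive complex 2 (PRC2) methylates lysine 27 of histone H3, a mark of silenced genes. Ezh2 and its paralog Ezh1 are its alternative catalytic subunits, Eed binds the finished mark and Suz12 holds the complex together. DNA methylation is copied to new strands after replication by Dnmt1, which Uhrf1 brings to hemimethylated DNA, while Dnmt3a and Dnmt3b methylate unmodified sites. Hells, also called Lsh, is a remodeler of the SNF2 family needed for normal DNA methylation. In the postnatal cerebellum, granule cell progenitors still divide in the external granule layer, and dividing cells use Ezh2, Dnmt1 and Uhrf1 strongly, whereas Ezh1 and Dnmt3a are typical of cells that have left the cycle.

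The promoters of the genes are shown first. Printed are those of 4 of the 5 members with every array below 0 (Ezh2, Eed, Suz12 and Dnmt1) and of 1 without a shared sign (Hells). Dnmt3a, also below 0 on every array, is not printed, nor are Uhrf1, Ezh1 and Dnmt3b, so the printed set is a selection. The sequences are RefSeq's (build GRCm38.p6), which held windows for all 9 genes, 14 windows in all, from 250 bases before to 50 after an annotated start. Each is printed 5′ to 3′ on the gene's strand and ends 30 bases after the start. Capitals mark letters that E2F factors, which drive genes of S phase, are known to bind (TTTCCCGC, TTTGGCGC, TTTCGCGC or TTTGCCGC) and the box CCAAT, known from NF-Y, each on either strand. The windows lie at chr6:47594981-47595280 (minus strand) for Ezh2, at chr11:79992856-79993155 (plus) for Suz12, at chr7:89980927-89981226 (minus) for Eed, at chr9:20952574-20952873 (minus) for Dnmt1 and at chr19:38930740-38931039 (plus) for Hells.
Ezh2: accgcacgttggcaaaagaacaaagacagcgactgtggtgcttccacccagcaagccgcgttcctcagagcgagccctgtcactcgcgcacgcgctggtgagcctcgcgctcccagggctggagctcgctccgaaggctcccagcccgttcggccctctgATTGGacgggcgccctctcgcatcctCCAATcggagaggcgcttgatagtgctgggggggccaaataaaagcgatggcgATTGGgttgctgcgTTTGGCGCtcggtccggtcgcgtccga
Suz12: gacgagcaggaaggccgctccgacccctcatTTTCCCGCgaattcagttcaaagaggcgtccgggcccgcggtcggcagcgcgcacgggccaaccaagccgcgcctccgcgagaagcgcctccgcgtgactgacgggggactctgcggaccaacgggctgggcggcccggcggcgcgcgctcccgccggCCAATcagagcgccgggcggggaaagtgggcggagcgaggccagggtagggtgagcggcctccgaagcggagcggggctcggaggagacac
Eed: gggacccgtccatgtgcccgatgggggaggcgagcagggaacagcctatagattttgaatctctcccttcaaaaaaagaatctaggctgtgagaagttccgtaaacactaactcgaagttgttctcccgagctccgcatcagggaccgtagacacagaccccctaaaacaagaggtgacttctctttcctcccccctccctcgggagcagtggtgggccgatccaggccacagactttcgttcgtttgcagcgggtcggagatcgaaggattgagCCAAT
Dnmt1: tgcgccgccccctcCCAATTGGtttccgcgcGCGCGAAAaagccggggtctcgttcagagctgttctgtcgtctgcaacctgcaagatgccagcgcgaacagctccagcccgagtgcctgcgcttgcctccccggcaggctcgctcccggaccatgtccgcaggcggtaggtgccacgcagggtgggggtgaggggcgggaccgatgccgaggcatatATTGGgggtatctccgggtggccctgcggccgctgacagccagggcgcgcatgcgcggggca
Hells: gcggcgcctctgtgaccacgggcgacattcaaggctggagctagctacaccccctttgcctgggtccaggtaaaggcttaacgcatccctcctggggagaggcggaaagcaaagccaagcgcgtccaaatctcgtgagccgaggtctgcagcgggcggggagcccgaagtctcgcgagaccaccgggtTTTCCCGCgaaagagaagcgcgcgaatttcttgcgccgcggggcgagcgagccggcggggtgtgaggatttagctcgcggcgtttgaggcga

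The E2F letters stood in a window of 5 of the 9 genes, Ezh2, Suz12, Dnmt1, Uhrf1 and Hells. Of all 27025 genes with a window, 2.6% held them in at least 1. Of all 32851 windows of this length, 2.26% did, and of the 8701 windows with at least 20 CpG sites, 5.15% did. In Ezh2 the match began 3 bases after the start and in Hells 62 bases before it. Suz12 had its match 219 bases before the start, and Dnmt1 had 1 at 219 bases before and another 33 bases after the third of its 3 annotated starts, and this last match is outside the printed stretch. Eed, Ezh1, Dnmt3a and Dnmt3b had no match, which says only that these letters are not in these windows. The box CCAAT was found in at least 1 window of Ezh2, Eed, Suz12, Dnmt1 and Uhrf1. Of all windows, 37.4% held it, which is a share of single windows and not of genes. The box overlapped no E2F match in these windows, but in Dnmt1 and Uhrf1 some matches on the 2 strands overlap each other. The GC box GGGCGG, searched on both strands and present in 35.7% of windows, had its highest count at Dnmt3a, with 7 in 1 window, some of them overlapping each other. The printed windows of Ezh2, Suz12, Dnmt1 and Hells were rich in CpG sites, with 31, 41, 33 and 34. The printed window of Eed had 17, and the median over all windows was 7. For Dnmt1 the window of the third start was printed, the one with E2F letters. Its first and second starts had 2 and 12 CpG sites and no E2F letters. A match is a description of the letters and says nothing of binding in these samples.

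**Figure D1:**
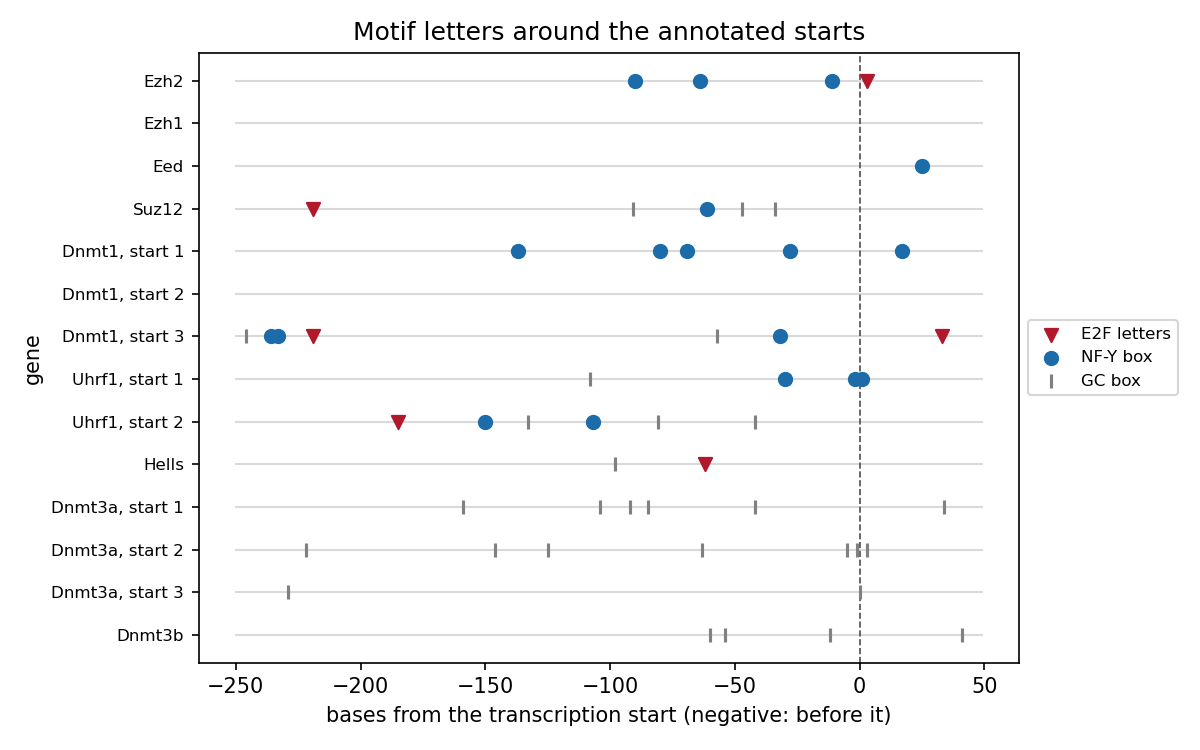
Positions of E2F letters (triangles), NF-Y boxes (circles) and GC boxes (bars) from 250 bases before to 50 after each annotated start of the 9 genes, with 1 line for each start and the start itself as a dashed line. The E2F letters appear at starts of Ezh2, Suz12, Dnmt1, Uhrf1 and Hells.

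Every value that follows is a log2 ratio, cKO divided by wild type, given per array or as a mean with its SD (n = 3). A value below 0 means less RNA in the cKO than in wild type, relative to the average probe. Each array gives a ratio and no level, so the genes cannot be ranked by expression, and whether the tissue's own markers were present could not be checked. The base of the logarithm is not stated in the sources, and fold changes hold only if it is 2. Against 0, limma called 0 of 28196 features at an adjusted p under 0.05 (0.0%), and the smallest adjusted p was 0.0841, while 5892 features had an unadjusted p under 0.05. No member passed the adjusted threshold, so the values are described by size, sign and spread. The targeted gene Smarca5 had -0.75, -0.96 and -0.88 on replicates 1, 2 and 3 (limma, adjusted p = 0.0885). Its 2 probes differed in size, with -1.22, -1.17 and -1.45 for one and -0.27, -0.74 and -0.30 for the other. Its sign is no independent check, because the reading of the ratios as cKO over wild type was settled with its help.

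Of the PRC2 core, Ezh2, Eed and Suz12 lay below 0 on every array, as did Dnmt1 and Dnmt3a, while Ezh1, Uhrf1, Hells and Dnmt3b had values on both sides of 0. In all, 5 of the 9 genes were below 0 on all 3 arrays (Ezh2, Eed, Suz12, Dnmt1 and Dnmt3a), against 22.1% of named genes, and 0 were above 0 on all 3, against 24.9%. An unadjusted p under 0.05 with a lower value was found for Eed, Ezh2 and Dnmt1, 3 of 9, against 9.88% of named genes, and with a higher value for 0 of 9, against 12.3%. The count changed with the arrays used. Without replicate 1, and likewise without replicate 3, it was 1 of 9 (Eed). Without replicate 2 it was 3 of 9 again, but with Suz12 in place of Dnmt1. A fit without an array also has fewer degrees of freedom. Over all features, the number at this threshold was 3566, 4066 and 5052 without replicates 1, 2 and 3, against 5892 with all. The means of Ezh2 and Dnmt1 were -0.48 and -0.38 with all arrays. They were -0.40 and -0.32 without replicate 1, -0.54 and -0.42 without replicate 2, and -0.50 and -0.39 without replicate 3. The median of the 9 means was -0.38, against 0.01 over all named genes. Per array the median of the members was -0.45, -0.14 and -0.35 on replicates 1, 2 and 3.

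**Figure D2:**
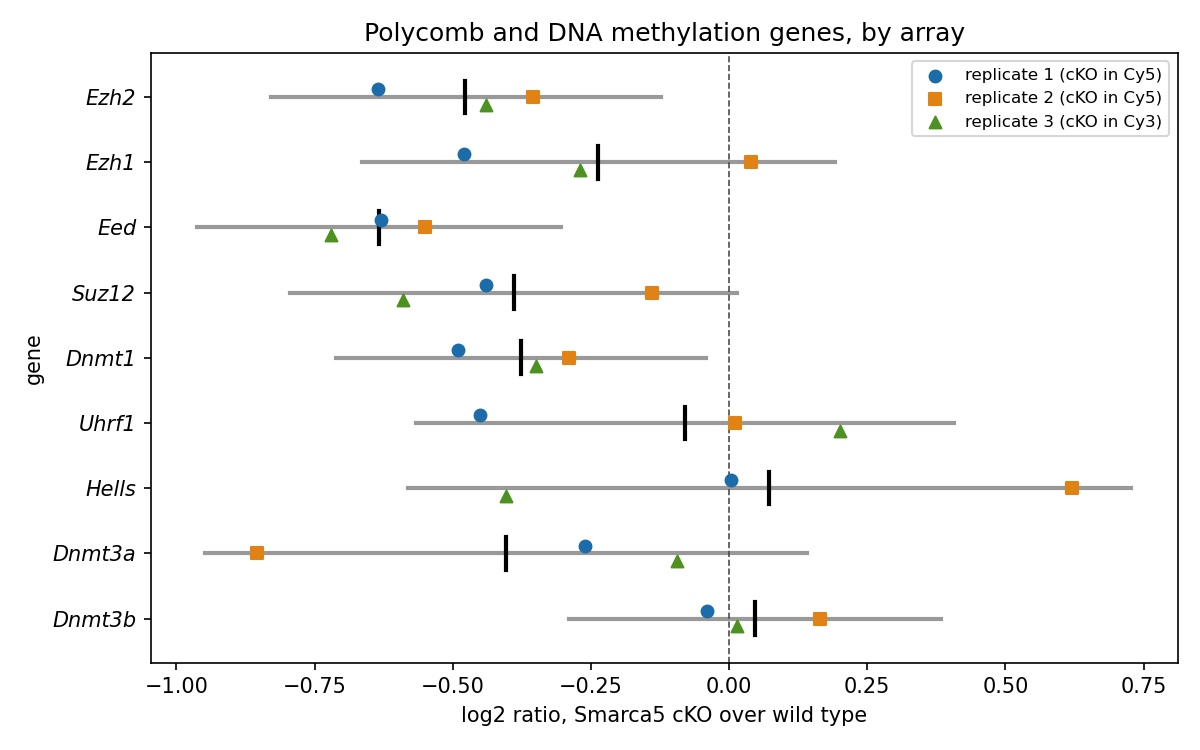
Log2 ratio of cKO over wild type (horizontal axis) for each of the 9 genes on each array, with the mean as a black bar and limma's 95% confidence interval as a grey line. The 3 arrays of Eed lie between -0.72 and -0.55, whereas those of Hells lie on both sides of 0.

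Eed, the subunit that reads trimethylated lysine 27 and activates the complex, had the lowest mean of the members. Its log2 ratios were -0.63, -0.55 and -0.72 on replicates 1, 2 and 3, all far from 0 and close to each other. The mean was -0.63 ± 0.09 (SD, n = 3), with a 95% interval from -0.96 to -0.31, which is 0.645 of the wild-type level. Of all named genes, 5.39% had a lower mean and 11.2% a smaller SD. The adjusted p was 0.109 (limma, Benjamini-Hochberg over all features). A single probe stands for this gene.

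Ezh2, the catalytic subunit of dividing cells, had -0.64, -0.36 and -0.44 on replicates 1, 2 and 3. All 3 arrays were below 0, with a mean of -0.48 ± 0.14 (SD, n = 3) and a 95% interval from -0.83 to -0.12, or 0.718 of the wild-type level (limma, adjusted p = 0.162). Its 2 probes gave the same sign on every array. The first had -0.69, -0.55 and -0.39, and the second -0.58, -0.16 and -0.49, so the 6 values do not reach 0.

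Suz12, the scaffold of the complex, was annotated on the array by an older symbol and has 1 probe. It had -0.44, -0.14 and -0.59 on replicates 1, 2 and 3, below 0 throughout but least so on replicate 2. The mean was -0.39 ± 0.23 (SD, n = 3), with a 95% interval from -0.80 to 0.02 that includes 0 (limma, adjusted p = 0.253).

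Ezh1, the catalytic paralog of cells that no longer divide, had -0.48, 0.04 and -0.27 on replicates 1, 2 and 3. Replicate 2 was above 0 and the others below, and the mean was -0.24 ± 0.26 (SD, n = 3; limma, adjusted p = 0.468). Without replicate 1 the mean of Ezh1 was -0.12, and without replicate 2 it was -0.38. The log2 ratio of Ezh2 minus that of Ezh1 was -0.16, -0.40 and -0.17 on replicates 1, 2 and 3, a mean difference of -0.24 ± 0.13. Ezh2 thus had the lower log2 ratio of the pair on all 3 arrays. An exact two-sided sign-flip permutation test cannot give less than p = 0.25 with 3 arrays, so this difference is given as a description.

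Dnmt1, the maintenance methyltransferase, had -0.49, -0.29 and -0.35 on replicates 1, 2 and 3 from 1 probe. These values are close together and below 0, with a mean of -0.38 ± 0.10 (SD, n = 3), a 95% interval from -0.71 to -0.04 and 0.77 of the wild-type level (limma, adjusted p = 0.207). Uhrf1, its partner at hemimethylated DNA, had -0.45, 0.01 and 0.20, on both sides of 0, with a mean of -0.08 ± 0.33 (limma, adjusted p = 0.85). The 2 probes of Uhrf1 disagreed. The first was below 0 on every array (-0.31, -0.25 and -0.16), and the second had -0.59, 0.27 and 0.56.

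Hells, the SNF2-type remodeler, had 0.00, 0.62 and -0.40 on replicates 1, 2 and 3, the widest spread of the members, with a mean of 0.07 ± 0.52 (SD, n = 3; limma, adjusted p = 0.901). Of named genes, 80.5% had a smaller SD. Its 3 probes differed in the order of the arrays. The first had 0.47, -0.02 and 0.19. The second, which the array annotates by a clone name, had -0.35, 1.09 and -0.96, and the third -0.11, 0.79 and -0.44, so replicate 2 was the highest on both of these and the lowest on the first.

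Dnmt3a, the de novo methyltransferase of neurons, had -0.26, -0.86 and -0.10 on replicates 1, 2 and 3, below 0 on each but mainly on replicate 2. The mean was -0.40 ± 0.40 (SD, n = 3; limma, adjusted p = 0.348), and without replicate 2 it was -0.18. Replicate 2 stood out on 1 of its 2 probes only. That probe had -0.40, -1.68 and -0.25, whereas the other had -0.12, -0.03 and 0.06, near 0 on all arrays. Dnmt3b, the de novo enzyme best known from early embryos, had -0.04, 0.17 and 0.02, with a mean of 0.05 ± 0.11 (limma, adjusted p = 0.876). The small spread of Dnmt3b comes from averaging 2 probes that ran against each other, with 0.31, -0.04 and -0.36 for the first and -0.39, 0.37 and 0.39 for the second. Dnmt3b minus Dnmt3a was above 0 on each array, at 0.22, 1.02 and 0.11, a difference that the same test, with its floor of 0.25, cannot call. On replicate 3, 1 probe of Dnmt3b (-0.36) lay below both probes of Dnmt3a (-0.25 and 0.06). The shared sign thus holds for the averages only. Dnmt1 minus Dnmt3a changed sign, at -0.23, 0.57 and -0.26.

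**Figure D3:**
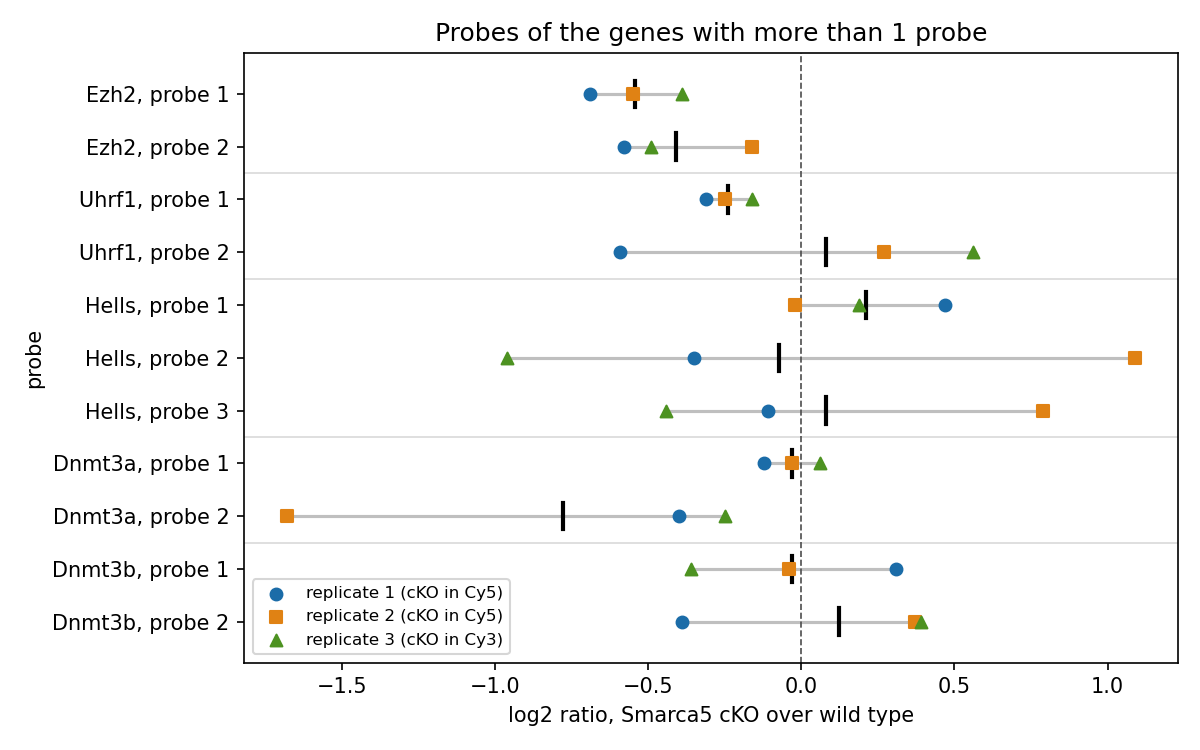
Log2 ratio of cKO over wild type (horizontal axis) on each array for every probe of the 5 genes with more than 1 probe, with the mean as a black bar and the range as a grey line. Both probes of Ezh2 and the first of Uhrf1 stay below 0, while the second probe of Uhrf1 and every probe of Hells and Dnmt3b have values on both sides of it.

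From the lowest mean to the highest the order was Eed, Ezh2, Dnmt3a, Suz12, Dnmt1, Ezh1, Uhrf1, Dnmt3b and Hells, and the 95% intervals of neighbours in this order overlapped in every case. Means were below 0 for 7 of the 9 genes, against 9520 of 19855 named genes. Likeness was measured as the Euclidean distance between log2 ratios over the 3 arrays, among 172 genes of the chromatin, imprinting, germline and cell cycle lists and the members. Nearest to Ezh2 was Usp7, a deubiquitinase, at 0.15, followed by Dnmt1 at 0.18. Usp7 was also nearest to Dnmt1, at 0.15, followed by Bub1b at 0.17. Eed was nearest to Bmi1, a subunit of Polycomb repressive complex 1 (0.21), and then to Kdm6a, a demethylase of lysine 27 (0.25). Dnmt3a was nearest to the replication licensing gene Cdt1 (0.09), which had -0.18, -0.81 and -0.09, and then to Ccnb2 (0.24). The values of Dnmt3a here are averages of 2 probes. Alone, these had -0.12, -0.03 and 0.06, and -0.40, -1.68 and -0.25. The nearest pairs of the others were Plk1 and Kdm6a for Suz12 (0.20 and 0.24), Trim28 and Cbx8 for Ezh1 (0.15 and 0.16), Piwil2 and Bcor for Dnmt3b (0.12 and 0.15), Pcgf1 and Mbd3 for Uhrf1 (0.25 and 0.30), and Tdrd1 and Snrpn for Hells (0.25 and 0.30). The values of Dnmt3b, Uhrf1 and Hells are likewise averages of probes that disagreed. With 3 arrays, such distances describe these hybridisations only.

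The remaining PRC2 subunits went both ways. Of 10 listed accessory genes, 9 were measured, and the median of their means was -0.07. On all 3 arrays 3 were below 0 and 2 above 0, against 22.1% and 24.9% of named genes. Mtf2, which brings PRC2 to CpG islands, had -0.22, -0.66 and -0.41 on replicates 1, 2 and 3 (limma, adjusted p = 0.218). It was the 1 accessory gene with an unadjusted p under 0.05, against 9.88% of named genes lower at that threshold. Rbbp4, a histone chaperone shared by several complexes, had -0.14, -1.09 and -0.32. Epop, a subunit that exists in part of the PRC2 complexes, had 0.18, 0.41 and 0.48, all above 0.

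Polycomb repressive complex 1, which ubiquitinates histone H2A and compacts chromatin, lay mostly below 0. Of 23 listed subunits, 20 were measured, with a median of -0.21. Of these, 12 were below 0 on all 3 arrays, against 22.1% of named genes, and 2 above, against 24.9%. At an unadjusted p under 0.05, 4 were lower, against 9.88% of named genes, and 1 higher, against 12.3%. Kdm2b, which binds CpG islands and recruits a variant of the complex, had -0.92, -0.93 and -0.65 on replicates 1, 2 and 3, with a mean of -0.84 ± 0.16 (limma, adjusted p = 0.0941). Bmi1, a core subunit known to sustain neural progenitors, had -0.78, -0.68 and -0.80, and its mean was -0.75 ± 0.06 (limma, adjusted p = 0.0936). Pcgf6, another alternative core subunit, had -0.71, -0.77 and -0.42. The catalytic subunit Rnf2 (-0.59 ± 0.32) and Yaf2 (0.42 ± 0.05) are named because they complete this count, after their values were seen. Cbx2, Cbx7 and Cbx8, readers of the lysine 27 mark also named after their values were seen, had means of -0.17, -0.21 and -0.23.

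Of 7 erasers of these marks, 5 were below 0 on all 3 arrays, against 22.1% of named genes, and 0 above, against 24.9%. Their median was -0.17, and 1 was lower at an unadjusted p under 0.05, against 9.88% of named genes. Kdm6a, which removes methyl groups from lysine 27, had -0.61, -0.32 and -0.63 on replicates 1, 2 and 3 (mean -0.52 ± 0.18; limma, adjusted p = 0.155). Bap1, which removes ubiquitin from histone H2A, had -0.17, -0.19 and -0.61, and Asxl3, of the family of Bap1 cofactors, had -0.70, -0.15 and -0.08.

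On the side of DNA methylation, partners of the methyltransferases were split, with a median of -0.04. On all 3 arrays 6 of 16 were below 0 and 2 above 0, against 22.1% and 24.9% of named genes. Usp7 had -0.62, -0.22 and -0.38. Dnmt3l, an inactive relative that stimulates the de novo enzymes in germ cells, had 0.51, 0.71 and 0.72 (mean 0.65 ± 0.12; limma, adjusted p = 0.11). Lig1, the ligase that joins Okazaki fragments, had 0.61, 0.47 and 0.41, above 0 on every array although it serves replication. Genes of demethylation had a median of -0.14 over 10. Of these, 5 were below 0 and 1 above 0 on all 3 arrays, against the same 22.1% and 24.9%. Tet3, an oxidase of methylcytosine in neurons, had -0.30, -1.02 and -0.64 on replicates 1, 2 and 3 (limma, adjusted p = 0.175), Gadd45b -0.04, -0.32 and -0.29, and the repair nuclease gene Apex1 0.11, 0.32 and 0.27.

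A list of Mbd and Zbtb genes was drawn up for methyl-CpG binding, which was not tested here for any of them. Means were below 0 in 9 of 9 measured genes out of 10 listed, against 9520 of 19855 named genes. Their median was -0.27, and 7 were below 0 on all 3 arrays, against 22.1% of named genes. At an unadjusted p under 0.05, 3 were lower. Mbd4, a glycosylase that repairs deaminated CpG sites, had -0.50, -0.41 and -1.06 on replicates 1, 2 and 3. Mbd6 had -0.32, -0.66 and -0.45, and Zbtb38, a zinc finger protein that binds methylated DNA, had -0.34, -0.57 and -0.24. Mbd4 was lowest on replicate 3 and the other pair on replicate 2.

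**Figure D4:**
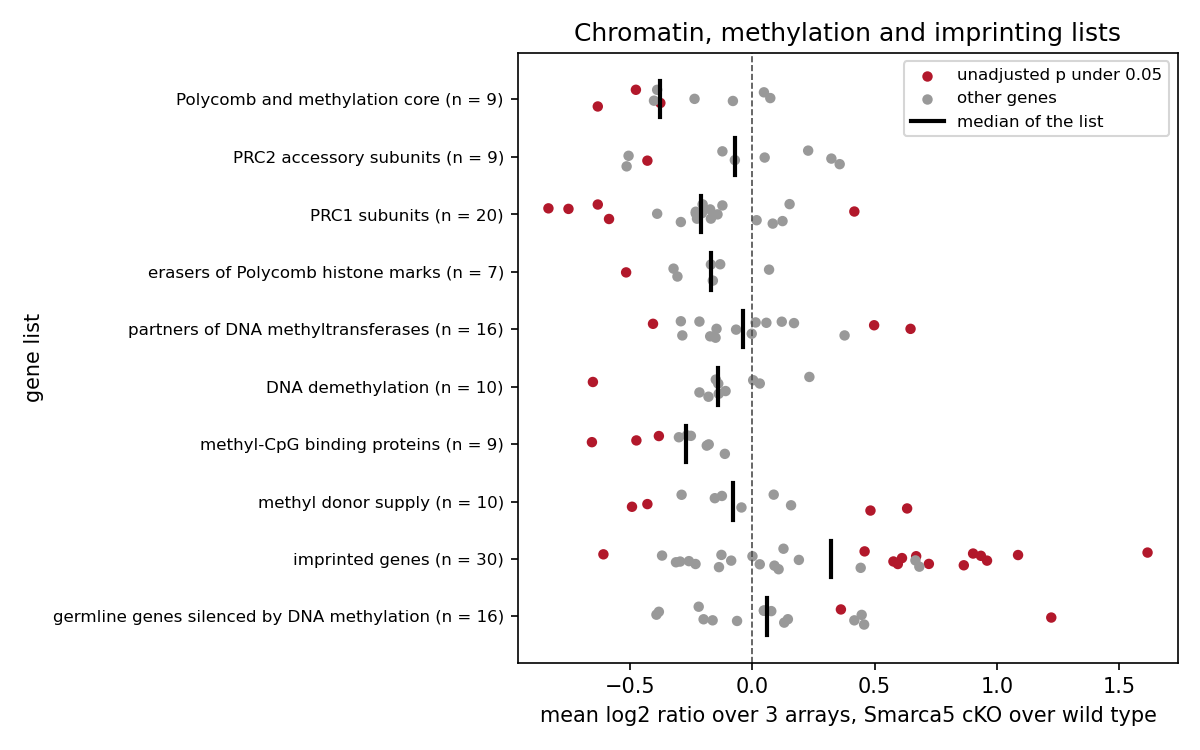
Mean log2 ratio of cKO over wild type over 3 arrays (horizontal axis) for each measured gene of the chromatin, methylation, imprinting and germline lists, with the list median as a black bar and genes of unadjusted p under 0.05 in red. The median of the 9 Polycomb and methylation genes is -0.38 and that of the imprinted genes is 0.32.

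Imprinted genes, whose parent-specific expression depends on DNA methylation, had more values above 0. Of 32 listed genes, 30 were measured, with a median of 0.32. Of these, 14 were above 0 on all 3 arrays, against 24.9% of named genes, and 7 below, against 22.1%. At an unadjusted p under 0.05, 12 were higher, against 12.3% of named genes, and 1 lower, against 9.88%. Magel2, a gene of hypothalamic and brainstem neurons in the Prader-Willi region, had 1.51, 1.78 and 1.56 on replicates 1, 2 and 3 (mean 1.62 ± 0.14; limma, adjusted p = 0.0841). Grb10, an adaptor that dampens insulin signalling, had 0.79, 0.99 and 1.04, and Peg10, derived from a retrotransposon, had 1.13, 1.01 and 0.74. Imprinted genes were not alike in this, since Mest had -0.70, -0.73 and -0.40, Ndn a mean of 0.00 ± 0.04 and Igf2 0.09 ± 0.09, all 3 named after their values were seen. In the same arrays the list of brainstem and midbrain neurons had a median of 1.87 over 10 genes, with 8 above 0 on all 3, and per array from 1.64 to 2.27 (Slc18a2 3.24 ± 0.72, Ddc 1.83 ± 0.13). Genes of this list differed, since Chat, Hoxa5 and Hoxb2, named after their values were seen, had means of 0.23, 0.17 and -0.35. The part of this list in the imprinted values was not tested.

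Germline genes that DNA methylation silences in body cells showed no common direction. Of 16, 2 were above 0 and 0 below 0 on all 3 arrays, against 24.9% and 22.1% of named genes. The median was 0.06. Ddx4, a helicase of germ cells, had 0.29, 0.51 and 0.29 on replicates 1, 2 and 3. Sycp3, of the synaptonemal complex, had 0.48, 2.35 and 0.84, far highest on replicate 2, and Asz1 had -0.20, 1.02 and 0.55.

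The members were also set beside the cell cycle and the cell types of the tissue, since Ezh2, Dnmt1, Uhrf1 and Hells serve dividing cells. The S phase list had a median of -0.22 over 23 genes. On all 3 arrays 12 were below 0 and 2 above 0, against 22.1% and 24.9% of named genes. At an unadjusted p under 0.05, 7 were lower, against 9.88% of named genes. E2f1, which drives S phase genes, had -1.09, -0.92 and -1.49 on replicates 1, 2 and 3 (mean -1.17 ± 0.29; limma, adjusted p = 0.0885). The helicase subunits Mcm5 and Mcm2 had means of -0.91 ± 0.29 and -0.81 ± 0.23, both further from 0 than any member. Pcna, the sliding clamp to which Dnmt1 binds, had 0.17 ± 0.17. The mitosis list had a median of -0.15 over 14 genes. Of these, 6 were below 0 and 0 above on all 3 arrays, against the same 22.1% and 24.9%. Ccna2 had -0.34, -0.30 and -0.76, Top2a -0.53, -0.89 and -0.19, Plk1 -0.41, -0.12 and -0.40, and the proliferation marker Mki67 a mean of -0.15 ± 0.14. Other genes of both lists, named after their values were seen, had means above 0. Of the mitosis list these were Aurkb, Aurka and Cenpa, at 0.32, 0.23 and 0.07. The S phase list had 7 such genes, among them Gins2, Gins1 and Mcm6, at 0.42, 0.27 and 0.10. Gins1 and Gins2 were above 0 on all 3 arrays. Uhrf1 and Hells, which dividing cells also use, had means of -0.08 and 0.07 on the same arrays.

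Markers of granule cells had lower medians than the members, with some genes of both lists at or above the members' values. The list of granule cell progenitors had a median of -0.84 over 11 genes. On all 3 arrays 6 were below 0 and 1 above 0, against 22.1% and 24.9% of named genes. Atoh1, which specifies the lineage, had -2.25, -2.02 and -1.38. Nhlh1 and Insm1, transcription factors of newly formed neurons, had -2.54 ± 0.34 and -1.62 ± 0.15. Other progenitor genes, named after their values were seen, were near the members or above 0, with Mycn at -0.38 ± 0.16, Ccnd1 at -0.38 ± 0.37, Ccnd2 at -0.41 ± 0.54, Gli2 at 0.10 ± 0.25 and Sfrp1 at 0.15 ± 0.13. Granule neurons had a median of -1.18 over 15 genes, of which 14 were below 0 on all 3 arrays, against 22.1% of named genes. Among them were Pax6 at -2.13 ± 0.47, Gabrd at -2.50 ± 0.36, Etv1 at -1.96 ± 0.18, Gabra6 at -1.34 ± 0.58 and Neurod1 at -0.51 ± 0.26. Zic1 (-0.41 ± 0.37) and Cbln1 (-0.39 ± 0.08), also named after their values were seen, lay near the members. In bulk tissue, fewer cells of a type and less RNA per cell cannot be told apart, and this holds for the members too. Some lists of other cells had medians above 0. Microglia had a median of 0.89, with 12 of 12 above 0 on all 3 arrays, against 24.9% of named genes (Aif1 1.23 ± 0.19, Fcer1g 1.17 ± 0.11). The choroid plexus had 0.56 over 7 genes (Clic6 0.65 ± 0.11, Calml4 0.65 ± 0.13) and the meninges 0.46 over 8 (Igfbp2 0.73 ± 0.25, Foxc1 0.58 ± 0.20). These lists held genes without such values too, among them Otx2 (-0.45 ± 0.12, below 0 on all 3 arrays) and Ttr (0.02 ± 0.03) of the choroid plexus and Lum (-0.53 ± 0.59) of the meninges, named after their values were seen. Purkinje cells had a median of 0.00 over 9 genes (Calb1 0.01 ± 0.25, Pcp2 -0.23 ± 0.62, Rora -0.30 ± 0.12, Ppp1r17 0.21 ± 0.27). Astrocytes and Bergmann glia had 0.09 over 10 (Gfap 0.46 ± 0.14, Gdf10 -0.69 ± 0.17, Sox9 0.59 ± 0.26). The oligodendrocyte lineage had 0.12 over 11 (Olig2 0.75 ± 0.09, Opalin 1.20 ± 0.17, Enpp6 1.02 ± 0.15), but Cspg4 (-0.30 ± 0.17) and Mog (-0.21 ± 0.09) were below 0 on all 3 arrays and Mbp (0.04 ± 0.06), Mag (0.04 ± 0.07) and Cnp (0.06 ± 0.10) near 0, these 5 again named after their values were seen. Endothelium had 0.11 over 7 (Esam -0.30 ± 0.10, Slco1a4 0.29 ± 0.31). Red blood cell genes, 5 in number, had a median of -0.12, and per array of -1.05, 0.08 and -1.49 (Hbb-y -1.02 ± 0.96, Alas2 -0.78 ± 1.78). How much of the members' values went with these shifts in markers was not tested.

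**Figure D5:**
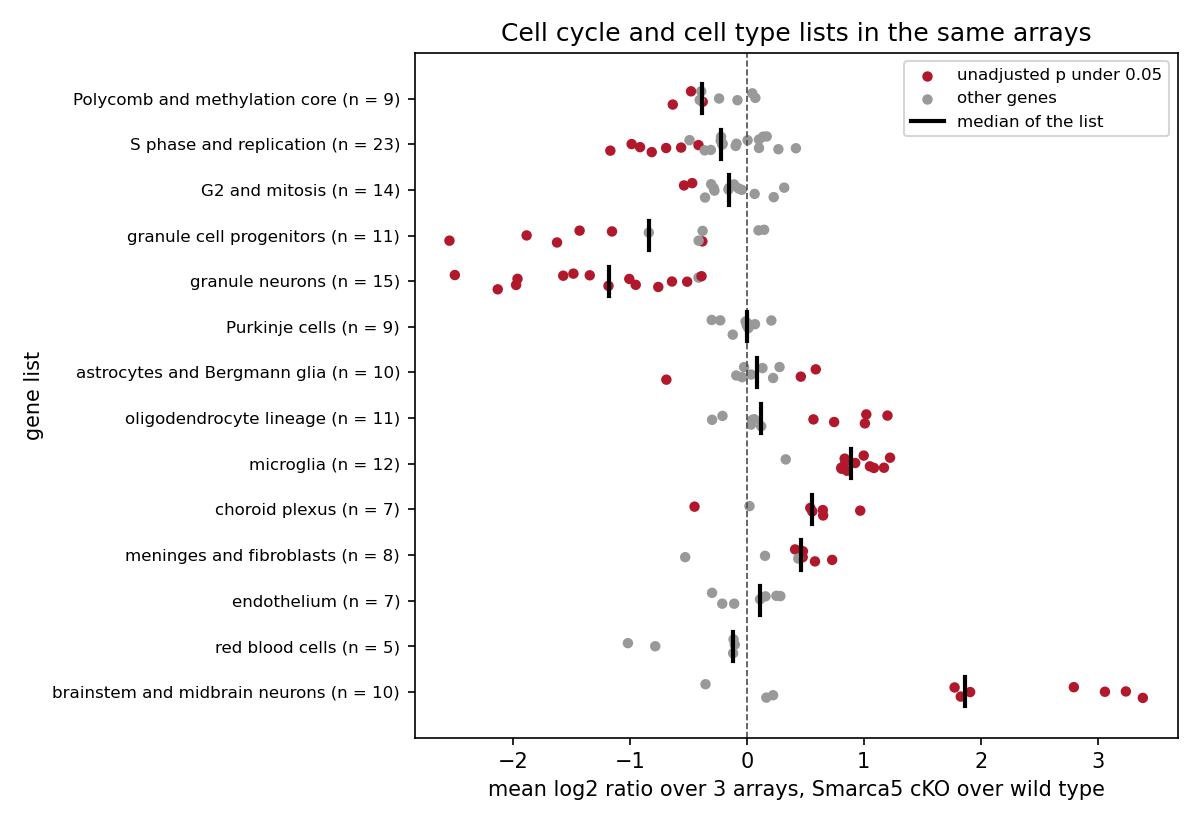
Mean log2 ratio of cKO over wild type over 3 arrays (horizontal axis) for each measured gene of the 9 Polycomb and methylation genes and of the cell cycle and cell type lists, with list medians as black bars and genes of unadjusted p under 0.05 in red. Granule neurons have a median of -1.18, microglia of 0.89 and the 9 genes of -0.38.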

How the data were processed

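RNA was measured on 3 arrays with a pair of colours. Per the labels, channel 1 held wild-type and channel 2 cKO RNA. Trizol extraction and Genisphere labelling are given per the labels' protocols. The deposited table holds 1 log2 ratio per probe and array, each array with a median of 0. How the authors corrected background and normalized, and the log base, is not stated in the labels. The labels do not say that replicates were separate animals, so p-values measure the spread between arrays, which may be technical.

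Ratios were read as channel 2 over channel 1, from the labels and the lower Smarca5. A set of 47 unnamed spots, first in runs of 810, followed the dye and was left out. Without them, Pearson's r across probes was 0.444, 0.266 and 0.223 between replicates 1 and 2, 1 and 3, and 2 and 3. Old symbols were updated through RefSeq names, and probes of a gene were averaged. The 28196 features (8341 unnamed probes) were fitted with limma 3.58.1 (R 4.3.3; lmFit, eBayes, Benjamini-Hochberg), tested on simulated data, with 2 residual and 2.08 prior degrees of freedom. No intensities were used, so dim probes could not be filtered, and the number of arrays limits the precision. Members and lists were chosen with earlier results of these data known. Named genes were all members, Smarca5, some fixed marker genes and, of each list, the 2 or 3 genes of smallest p. The alternatives changed symbols, probe averaging, moderation, scaling, the dye term, spots and replicates.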

Additional observations from a re-analysis of the deposited data

How the results depend on the processing

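Of 107 values of the members under other processing settings, 103 kept their sign and 4 turned it. Many of the 103 could not have turned. The settings of moderation and of corner spots leave the members' means unchanged. The median of the probes and the symbols as on the array can change only the mean of Hells. The tally is therefore no measure of robustness. The dye orientation as a term put Hells at -0.05. Leaving out 1 replicate gave Hells from -0.20 to 0.31, Dnmt3b from -0.01 to 0.09 and Uhrf1 from -0.22 to 0.10, and the cause was not tested. Eed stayed between -0.68 and -0.59, Ezh2 between -0.54 and -0.40, Dnmt1 between -0.42 and -0.32, Suz12 between -0.52 and -0.29, Ezh1 between -0.38 and -0.12 and Dnmt3a between -0.56 and -0.18 when a replicate was left out. With each probe on its own, the probe of smallest p put Dnmt3a at -0.78. Suz12 has no value with the symbols as on the array, where it bears an older symbol. No member passed an adjusted p of 0.05 in limma under any alternative, with a smallest adjusted p of 0.106. Over all features, 0 passed under every alternative except the fit without moderation, where 2 did. The following counts were added after the data were seen. At an unadjusted p under 0.05, 3 members were lower, 2 with a dye term, and from 1 to 3 when 1 replicate was left out (Eed alone without replicate 1 or 3; Eed, Ezh2 and Suz12 without replicate 2). Members below 0 on every remaining array numbered 5 to 6 without 1 replicate, and imprinted genes higher at that threshold 10 to 11, against 12 with all arrays. The fit of the ratios is already paired within arrays. No paired analysis was possible beyond it, because the ratios form a single group and leave no replicate block to add. Signal over background is unknown, so depth limits cannot be stated.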

Other observations

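Genes that supply methyl groups, which both DNA and histone methyltransferases use, went in both directions. Of 11 listed, 10 were measured, with a median of -0.08. On all 3 arrays 4 were below 0 and 2 above 0, against 22.1% and 24.9% of named genes. At an unadjusted p under 0.05, 2 were lower and 2 higher, against 9.88% and 12.3% of named genes. No trait of the list is read from these counts. The serine hydroxymethyltransferase pair diverged, with the cytosolic Shmt1 at 0.62, 0.61 and 0.68 on replicates 1, 2 and 3 and the mitochondrial Shmt2 at -0.43, -0.48 and -0.39. The values of the pair did not overlap, though both missed the threshold (limma, adjusted p = 0.106 for Shmt1 and 0.162 for Shmt2). Mat2b, the regulatory subunit of the enzyme that makes S-adenosylmethionine, had -0.51, -0.47 and -0.51, whereas the catalytic Mat2a, named after its values were seen, had -0.15 ± 0.04.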
